A study of Mus musculus with 11 samples.

Results

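The gene expression of the 3 control libraries of the series is described, out of 11 libraries in all. They were chosen by their label alone, and the 8 libraries from knockout mice were not used. The mice carried floxed alleles of Nfasc, which encodes Neurofascin, and of Ank3, which encodes Ankyrin G (AnkG), and were not treated. The design text gives both genes as floxed without a Cre transgene (NF Fx/Fx; AnkG Fx/Fx), the study's methods also allow a floxed allele of either gene alone, and a passage of its results adds Pcp2-Cre to the control genotype, so the genotype of each library was taken only as far as the label "control" goes. The labels name C57BL/6J in the description and a mixed C57BL/6J;129 background in the growth protocol, ages of postnatal day 30 and of postnatal day 32, mixed sex, littermates, and batch 1 for all 3 libraries. They call the libraries biological replicates and do not say whether each came from a single mouse. The tissue is labelled cerebellar hemisphere, and polyadenylated RNA was sequenced in bulk, so that fewer cells of a type and less RNA per cell cannot be told apart. With 1 group there is no contrast and no test: the spread between the 3 libraries stands for the error, and values are given for replicates 1, 2 and 3 in that order, a numbering that carries no sequence in time or dose.

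Reads counted on genes totalled 38890851, 48540837 and 42429974, and a floor of 3 counts corresponded to 0.0771, 0.0618 and 0.0707 CPM of the plain totals, for counting error only. CPM are counts scaled to library size, and all other CPM values are corrected by the TMM method. At a mean of at least 1 CPM were 13853 of 22609 genes, the genes compared here, and 13531 genes reached 1 CPM in every library, while 4361 had no count in any. Of the genes compared, 34.1%, 33.2% and 32.7% were highest in replicates 1, 2 and 3, and 34.5%, 33.2% and 32.2% lowest. Between the highest and the lowest library, 2.26% differed by at least 2-fold. The counts of each list stand beside these shares. Where levels of different genes are set side by side, they are given as TPM (counts divided by exon length and scaled to a fixed total).

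The cerebellum develops from the most anterior segment of the embryonic hindbrain, ahead of the part where Hox genes are switched on. Its cortex is built from Purkinje cells, the inhibitory output neurons, from the far more numerous granule cells that excite them, and from a few kinds of interneurons and Bergmann glia. Hox genes are transcription factors that lie in 4 clusters, A to D, and are numbered by paralog group along each cluster. Low numbered groups are expressed from the hindbrain backwards and higher numbered groups begin further down the spinal cord, a pattern that neurons keep in part into adulthood. Spinal cord and brainstem also hold cholinergic motor neurons, and white matter in every region is rich in the myelin genes of oligodendrocytes.

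The 3 libraries were alike in the summed level of oligodendrocyte and astrocyte genes and unlike in many of the genes that mark a region. Transcripts of Purkinje and granule cells were highest in replicate 1 and lowest, in part near the floor, in replicate 3. Hox genes were read in all 3 libraries, mainly up to paralog group 9, and replicate 2 differed from the other two in their pattern. Replicate 2 also held the most RNA of fibroblast, meningeal and muscle genes, and replicate 3 the most of Schwann cell genes. Xist and the Y-linked genes differed between all 3 libraries.

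In no library did all the marker genes go with the tissue label. Pcp2 and Gabra6, of cerebellar neurons, were far lower in replicates 2 and 3 than in replicate 1, and Hoxc8 was read in all 3. Pcp2, a Purkinje cell protein whose promoter drives the Cre line of the study, lies on chromosome 8 from 3673371 to 3675545 of GRCm39 and had 1013, 71 and 7 counts, or 26.3, 1.44 and 0.166 CPM. It was 18.3-fold higher in replicate 1 than in replicate 2, and 7 counts in replicate 3 are close to the floor. Gabra6, the GABA-A receptor subunit of granule cells (chromosome 11 from 42197264 to 42211910), had 3238, 219 and 4 counts, or 84.1, 4.43 and 0.0950 CPM. Replicate 3 was again the lowest by far, 1 count above the floor of 3. Hoxc8, a homeobox gene of the brachial and thoracic spinal cord (chromosome 15 from 102898851 to 102902543), was at 105, 8.04 and 101 CPM. Here replicates 1 and 3 were close to each other, and replicate 2 was 13.1-fold below replicate 1. Chat, choline acetyltransferase of cholinergic neurons (chromosome 14 from 32129369 to 32187946), was at 46.7, 29.7 and 52.5 CPM, lowest in replicate 2. Mbp, myelin basic protein (chromosome 18 from 82493207 to 82603763), was at 14109.6, 13821 and 15012 CPM, and Gfap, the intermediate filament of astrocytes (chromosome 11 from 102778159 to 102791738), at 1919, 2163 and 1583 CPM. These last 2 genes stayed within 2-fold over the 3 libraries, as did Chat. Per length, the means were 31.5 ± 49.8 TPM for Pcp2, 73.1 ± 117 TPM for Gabra6, 147 ± 113 TPM for Hoxc8, 43.2 ± 11.6 TPM for Chat, 2069 ± 337 TPM for Gfap and 9179 ± 359.7 TPM for Mbp (SD, n = 3). For Pcp2 and Gabra6 the SD was larger than the mean.

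**Figure D1:**
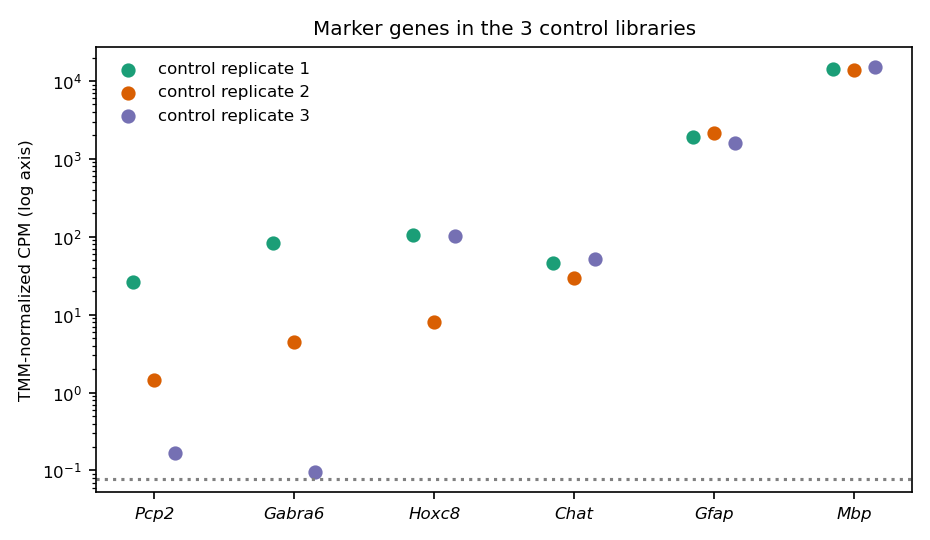
TMM-normalized CPM on a log axis for the 6 marker genes, 1 point per control library, with the dotted line at the highest floor of 3 counts (0.0771 CPM). Pcp2 and Gabra6 lie at 26.3 and 84.1 CPM in replicate 1 and at 0.166 and 0.0950 CPM in replicate 3, Hoxc8 is low in replicate 2 alone, and Mbp and Gfap lie close together.

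The promoter sequences of 4 of these region genes are shown because their transcripts separate the libraries in opposite ways: Pcp2 and Gabra6 were high in replicate 1, Hoxa2 was highest and Hoxa9 lowest in replicate 2. Each window runs from 250 bases before to 50 bases after a RefSeq transcription start on GRCm38.p6, 5′ to 3′ on the gene's own strand, which is the minus strand for all 4, with every CG dinucleotide in capitals. The windows are chr8:3625498-3625797 for Pcp2, where 4 windows are listed for the gene and the first start is shown, chr11:42321023-42321322 for Gabra6, chr6:52164782-52165081 for Hoxa2 and chr6:52227321-52227620 for Hoxa9.
Pcp2: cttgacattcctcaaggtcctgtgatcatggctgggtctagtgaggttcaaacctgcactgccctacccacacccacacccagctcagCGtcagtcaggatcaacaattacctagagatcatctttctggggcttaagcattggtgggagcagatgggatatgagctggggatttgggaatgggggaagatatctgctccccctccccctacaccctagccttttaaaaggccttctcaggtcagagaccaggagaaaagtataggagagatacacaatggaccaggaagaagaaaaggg
Gabra6: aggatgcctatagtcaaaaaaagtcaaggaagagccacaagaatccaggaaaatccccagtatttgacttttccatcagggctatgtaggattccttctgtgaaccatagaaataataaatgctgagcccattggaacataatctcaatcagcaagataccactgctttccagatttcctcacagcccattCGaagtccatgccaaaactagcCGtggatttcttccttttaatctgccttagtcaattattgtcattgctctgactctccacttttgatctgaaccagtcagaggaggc
Hoxa2: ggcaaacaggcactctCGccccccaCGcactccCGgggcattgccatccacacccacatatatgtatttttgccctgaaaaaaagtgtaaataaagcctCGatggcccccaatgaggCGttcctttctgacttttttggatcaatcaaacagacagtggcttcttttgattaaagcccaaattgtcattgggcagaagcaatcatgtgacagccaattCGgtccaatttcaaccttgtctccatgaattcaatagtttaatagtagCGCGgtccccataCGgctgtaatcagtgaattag
Hoxa9: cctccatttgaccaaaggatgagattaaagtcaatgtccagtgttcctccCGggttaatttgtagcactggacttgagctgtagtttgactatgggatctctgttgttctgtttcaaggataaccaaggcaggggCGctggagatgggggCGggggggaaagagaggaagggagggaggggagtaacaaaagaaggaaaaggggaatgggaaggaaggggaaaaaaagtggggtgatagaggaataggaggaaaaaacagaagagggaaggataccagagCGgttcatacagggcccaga
The windows hold 1, 2, 9 and 4 CG dinucleotides, against a median of 7 over all 32851 promoter windows of the same length, of which 43.6% hold 5 or fewer. The letters TATAAA, searched on both strands, occur in none of the 4 windows and in 13.6% of all windows. The sequences describe the genes, and the files hold no measurement of binding or methylation at them. No window for Hoxc8 is in the table.

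Purkinje cell genes were highest in replicate 1. The 16 genes of the list summed to 1602, 664 and 536 CPM, and 14 of 16 were highest in replicate 1 and 14 of 16 lowest in replicate 3. Over all genes compared, 34.1% were highest in replicate 1 and 32.2% lowest in replicate 3. Of the 16, 10 differed by at least 2-fold between the highest and the lowest library, where 2.26% of all genes compared did (313 of 13853). Itpr1, the IP3 receptor of Purkinje cell calcium release, was at 599, 143 and 129 CPM. Car8, a carbonic anhydrase-related protein that binds this receptor, was at 156, 18.3 and 8.53 CPM. Gsbs (current symbol Ppp1r17), a phosphatase inhibitor phosphorylated by cGMP-dependent kinase, was at 21.5, 1.90 and 0.665 CPM. These 3 genes share the order of Pcp2, with replicate 1 far above and replicate 3 lowest. Calb1, the calcium buffer calbindin, was at 112, 71.6 and 45.4 CPM, a smaller step, and Rgs8, a regulator of G-protein signalling, was at 205, 80.1 and 53.0 CPM. Transcription factors of the list stayed within 2-fold. Skor2, a corepressor of the Purkinje lineage, was at 3.87, 4.43 and 3.49 CPM, Rora, a nuclear receptor, at 13.5, 10.5 and 12.6 CPM, and Foxp2, a forkhead factor and the lowest of the list by TPM, at 8.18, 13.1 and 8.50 CPM. Skor2 and Foxp2 were the members highest in replicate 2.

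Granule cell genes followed the same order with a wider span. The 14 genes summed to 988, 253 and 177 CPM, all 14 were highest in replicate 1, 11 were lowest in replicate 3, and 12 of 14 passed 2-fold between the highest and lowest library. Over all genes compared, these shares were 34.1%, 32.2% and 2.26%. Fat2, a giant protocadherin of parallel fibres, was at 143, 7.94 and 0.119 CPM, the widest range of any autosomal gene at 7.86 on the log2(CPM + 0.5) scale. Cbln3, a cerebellin that assembles with Cbln1, was at 193, 12.2 and 1.88 CPM, and Slc17a7, the vesicular glutamate transporter VGLUT1, at 59.3, 6.82 and 0.356 CPM. Neurod1, a transcription factor of granule neurons, was at 53.9, 5.20 and 1.66 CPM, and Gabrd, the extrasynaptic GABA-A subunit, at 25.4, 3.79 and 1.76 CPM. In replicate 3, Gabra6, Fat2 and Slc17a7 thus had 4, 5 and 15 counts. Some other members kept clear levels in replicates 2 and 3, such as Zic2 at 42.1, 18.5 and 12.3 CPM. Cbln1 was at 126, 68.3 and 40.1 CPM and Etv1 at 57.5, 44.3 and 45.8 CPM. Barhl1, the lowest of the list, was at 2.80, 1.42 and 1.59 CPM.

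Genes of other cerebellar neurons showed the same direction to a lesser degree, and those of Bergmann glia were mixed. The 8 interneuron and unipolar brush cell genes summed to 198, 154 and 126 CPM, with the 6 genes compared all highest in replicate 1 and 3 of them past 2-fold. Eomes, the transcription factor of unipolar brush cells, had 134, 8 and 0 counts, while Pax2, which spinal inhibitory neurons use as well, was at 31.0, 30.5 and 27.4 CPM. Ptf1a, needed early in the inhibitory lineage, had no count in any library. The 6 Bergmann glia genes summed to 766, 646 and 602 CPM, and 1 of 6 passed 2-fold: Gdf10, a secreted factor of Bergmann glia, at 30.6, 8.81 and 8.15 CPM. The other 5 are shared with astrocytes elsewhere, and among them Slc1a3, the glutamate transporter GLAST, was at 298, 215 and 160.1 CPM. Fabp7, a fatty acid binding protein, was lowest in replicate 1 by CPM, with 1281, 2026 and 1929 counts, and Timp4, a metalloproteinase inhibitor, highest in replicate 3, at 76.9, 71.5 and 84.4 CPM. Hopx and Ptprz1 were at 101, 99.7 and 88.9 CPM and 226, 209 and 215 CPM. En2, a homeobox gene of midbrain and cerebellum, was at 25.4, 5.75 and 4.25 CPM, and Otx2, a homeobox gene of the forebrain, midbrain and part of the granule cells, had 102, 6 and 0 counts.

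Hox genes were read in all 3 libraries and were scarce beyond paralog group 9. Summed over groups 1 to 3 (8 genes) they were at 62.1, 92.3 and 74.7 CPM, over groups 4 and 5 (7 genes) at 179.7, 273 and 205 CPM, over groups 6 to 9 (12 genes) at 532, 398 and 614 CPM, and over groups 10 to 13 (12 genes) at 1.04, 0.324 and 1.35 CPM. Of the last 12, none reached a mean of 1 CPM and 8 had no count in any library. Hoxa10 was the highest of them at 0.909, 0.162 and 1.16 CPM. The most abundant Hox gene was Hoxb8 at 503 ± 58.5 TPM (SD, n = 3), with 187, 222 and 232 CPM, so that the level per length was above that of Chat (43.2 ± 11.6 TPM) in the same libraries. The labels give no tissue other than cerebellar hemisphere, and the source of these transcripts was not tested.

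Replicate 2 differed from the others according to paralog group. For each Hox gene, replicate 2 was set against the mean of replicates 1 and 3 on the log2(CPM + 0.5) scale. All 14 genes compared of groups 1 to 5 were highest in replicate 2, by a median of 0.42 (0.22 to 0.76), and none of them passed 2-fold. In groups 6 to 9, 8 of 12 genes were lowest in replicate 2, with a median difference of -0.86 and a range from -3.60 to 0.39, and 5 of 12 passed 2-fold. Over all genes compared, 33.2% were highest and 33.2% lowest in replicate 2, and 2.26% passed 2-fold. All 4 genes of group 9 were lowest in replicate 2 (median -2.10). Hoxa5, of group 5, was at 38.9, 72.9 and 47.4 CPM, and Hoxa2, of group 2, at 4.08, 7.39 and 4.87 CPM, both highest in replicate 2. Within the same HoxA cluster, Hoxa7 was at 28.3, 12.2 and 29.1 CPM and Hoxa9 at 3.58, 0.547 and 4.35 CPM, both lowest in replicate 2. Hoxb9 was at 65.5, 12.7 and 82.4 CPM, and Hoxc9 had 54, 2 and 99 counts, which leaves replicate 2 under the floor. The neighbours Hoxb6, Hoxb7 and Hoxb8 did not share the drop, with 40.3, 59.1 and 50.2 CPM, 21.1, 31.6 and 29.9 CPM and 187, 222 and 232 CPM. Between replicates 1 and 3 the differences were small and mostly to the lower side of replicate 1, with medians of -0.22 in groups 1 to 5 and -0.28 in groups 6 to 9. Hoxd3 and Hoxd4 overlap in the annotation and share 36.9% and 46.5% of their 50-base words with another gene, so their values (11.3, 17.5 and 12.1 and 12.6, 16.5 and 13.5 CPM) are uncertain.

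**Figure D2:**
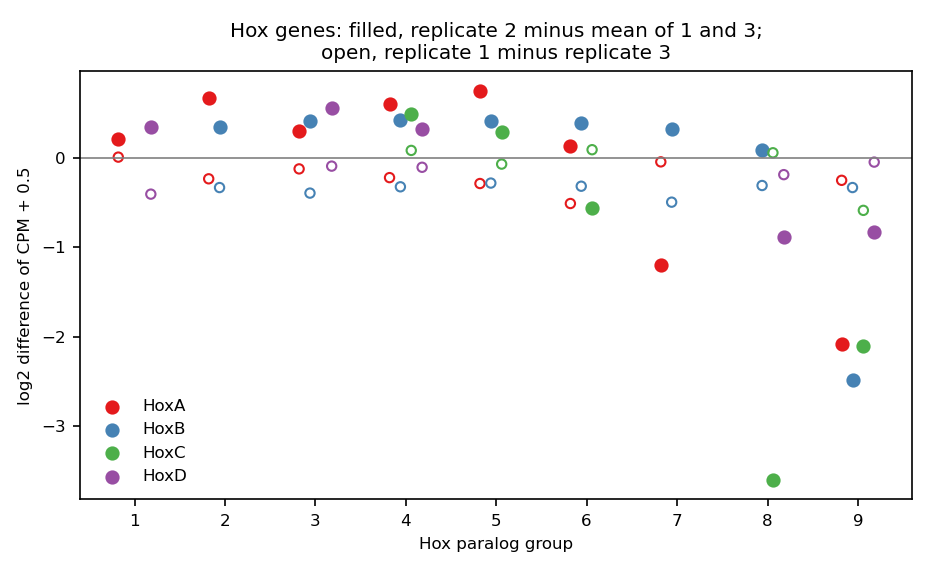
Difference in log2(CPM + 0.5) for each Hox gene compared, by paralog group and cluster, for replicate 2 against the mean of replicates 1 and 3 (filled) and for replicate 1 against replicate 3 (open). Filled points lie above 0 for all 14 genes of groups 1 to 5 and reach -3.60 for Hoxc8, while open points lie between -0.58 and 0.10.

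Most defining genes of the forebrain were at or near 0. Of the 16 telencephalon genes, 9 were at or under the floor in at least 1 library. Dlx2 and Six3, homeobox factors of the developing forebrain, had no count in any library. The list still summed to 372, 369.6 and 373 CPM, of which 6330527O06Rik (current symbol Lamp5), a lysosome-associated membrane protein that is not limited to cortex, gave 342, 310.2 and 339 CPM. Drd2, a dopamine receptor that neurons of other regions carry too, was at 9.66, 14.7 and 11.7 CPM. The 12 diencephalon and hypothalamus genes summed to 18.4, 23.3 and 18.8 CPM, with Avp, Six6 and Nkx2-1 at no count in any library. The 9 midbrain and hindbrain patterning genes summed to 45.0, 27.0 and 23.9 CPM, of which En2 was the member that passed 2-fold. The 10 monoamine neuron genes summed to 8.23, 18.7 and 6.68 CPM. Dbh, the enzyme that makes noradrenaline, had 5, 132 and 2 counts, Slc6a4, the serotonin transporter, 1, 95 and 4 counts, and Slc18a2, the vesicular monoamine transporter and no member of the list, 9, 160 and 18 counts. All 3 were highest in replicate 2.

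Cholinergic motor neuron genes were read in all 3 libraries and were lowest in replicate 2. The 12 genes summed to 897, 674 and 939.6 CPM, all 12 were lowest in replicate 2, and Prph and Uts2 passed 2-fold. Over all genes compared, 33.2% were lowest in replicate 2 and 2.26% passed 2-fold. Slc5a7, the choline transporter, was at 145, 96.6 and 158 CPM, Slc18a3, the vesicular acetylcholine transporter, at 70.8, 42.1 and 71.8 CPM, and Prph, the filament protein peripherin, at 93.5, 47.0 and 102 CPM. Mnx1, a homeobox factor of motor neurons, was at 2.21, 1.07 and 1.95 CPM, and Isl2, a LIM factor of the same cells, at 2.80, 1.34 and 3.06 CPM. Chodl, a marker of fast motor neurons, was at 36.9, 21.9 and 43.9 CPM, and Uts2, the peptide urotensin 2, at 5.66, 2.37 and 3.97 CPM. The step between replicate 2 and the others was thus present from the abundant to the scarce members. Ache, acetylcholinesterase, which many other neurons carry, differed least at 276, 256 and 276 CPM.

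Spinal interneuron factors and dorsal horn peptides were also present. The 14 interneuron factors summed to 132, 147 and 137 CPM, and 1 of the 12 at a mean of 1 CPM or more passed 2-fold. Lbx1 and Tlx3, factors of dorsal horn neurons, were at 5.24, 8.58 and 7.17 CPM and 4.23, 4.29 and 4.06 CPM. The 12 peptide genes of the dorsal horn list summed to 272, 387 and 375 CPM, all 12 lowest in replicate 1, with 3 of 12 past 2-fold. Over all genes compared, 34.5% were lowest in replicate 1 and 2.26% passed 2-fold. Penk, preproenkephalin, was at 122, 152 and 158 CPM, Sst, somatostatin, at 60.9, 94.5 and 85.0 CPM, Tac2, neurokinin B, at 16.7, 31.5 and 33.3 CPM, and Nmu, neuromedin U, at 1.97, 5.87 and 5.68 CPM. Here replicates 2 and 3 were close and replicate 1 was apart, the lowest of the 3. Of the vesicular glutamate transporters, Slc17a6 (VGLUT2), which brainstem and spinal neurons use, was at 235, 288 and 270.4 CPM, close in all 3 libraries, while Slc17a7 spanned 6.13 on the log2 scale. The 6 genes of GABA and glycine neurons summed to 1657, 1597 and 1669 CPM with none past 2-fold, among them Slc6a5, the glycine transporter, at 233, 204 and 230.1 CPM and Glra1, a glycine receptor subunit, at 135, 125 and 159.9 CPM. The defining genes of sensory ganglion neurons were low in a list of 10 genes that summed to 52.1, 42.1 and 49.6 CPM: Scn10a, a sodium channel of nociceptors, had 6, 7 and 2 counts, Mrgprd had none, and Calca, which motor neurons share, was at 38.5, 18.5 and 35.6 CPM.

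The most abundant transcripts included some of myelin, the cytoskeleton, calcium signalling and ion transport, beside others. Of the 20 genes with the highest mean TPM, 17 are named here. Mbp was the highest (mean 9179 ± 359.7 TPM), and among the next were Fth1, ferritin heavy chain (5149 ± 72.1 TPM), Tubb4 (current symbol Tubb4a), a tubulin of oligodendrocytes and neurons (4367 ± 473 TPM), and Nefl, the light neurofilament (3841 ± 796 TPM, SD, n = 3). Psap, Scd2, Sparcl1, Calm3, Cst3, Cplx1, Atp1b1, Ckb, Aldoc, S100b, Glul, Sparc and Nefm were lower, down to 2342 ± 459 TPM for the last. Of the 20 genes, 16 were in the first 20 of every library. Those named include the lysosomal protein prosaposin (Psap), a calmodulin gene (Calm3), the fatty acid desaturase of myelin lipids (Scd2), a subunit of the sodium pump (Atp1b1) and astrocyte genes (Aldoc, S100b, Glul, Sparcl1). Relative to the mean, Nefl and Nefm were the widest of the 20, Nefl with 4075, 2955 and 4493 TPM and Nefm with 2515, 1821 and 2688 TPM, both lowest in replicate 2. Atp1b1 was the tightest, at 2927, 2914 and 2919.9 TPM. The order depends on the exon length used, since 12 of the 20 stayed among the first 20 with each of 3 ways to measure it. By counts, the 20 most abundant genes took 7.55%, 7.34% and 7.79% of a library, Mbp alone 1.40%, 1.41% and 1.49%, and the first 1000 genes 48.0% to 48.9%. The 13 protein-coding genes of the mitochondrial genome have no line in the tables.

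**Figure D3:**
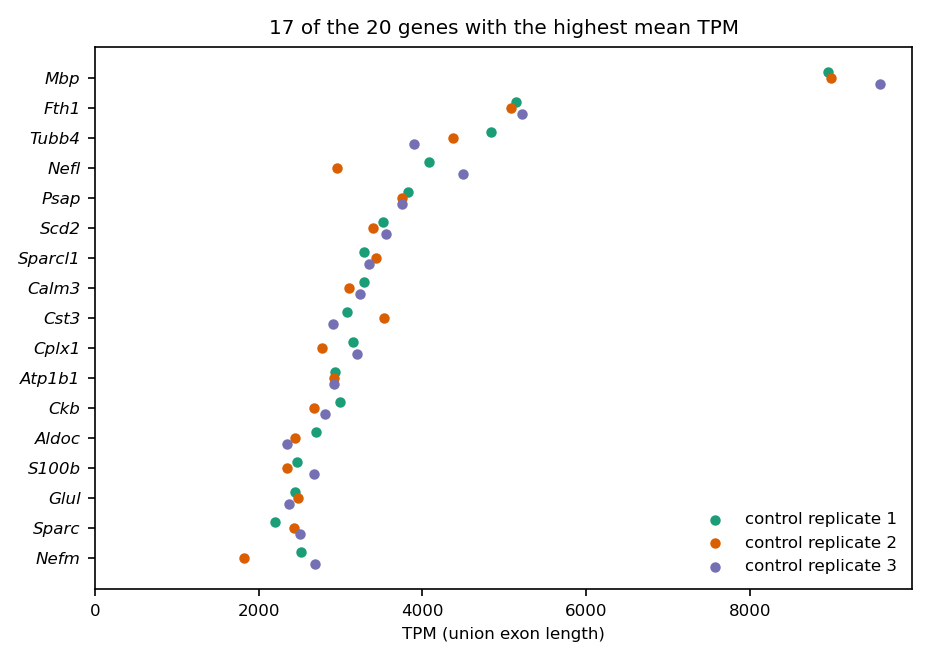
TPM of 17 of the 20 genes with the highest mean TPM, 1 point per control library. Among those plotted, Mbp lies far above the rest in every library, Fth1 has a mean of 5149 TPM, and Nefl and Nefm show the widest spread relative to their means, with replicate 2 lowest.

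Oligodendrocyte genes varied about as much as other abundant genes and astrocyte genes more. The median SD of log2(CPM + 0.5) over the 3 libraries was 0.062 for the oligodendrocyte list and 0.098 for the astrocyte list, against 0.085 over all genes compared. That last value includes many scarce genes, which vary more. The median SD was 0.065 for genes from 30 to 100 CPM and 0.061 from 100 to 300 CPM. It was 0.066 from 300 to 1000 CPM and 0.070 above. The 15 oligodendrocyte genes summed to 34911, 33894 and 36014 CPM and none passed 2-fold, with Mag, myelin-associated glycoprotein, at 1308, 1214 and 1159.8 CPM, and Opalin, the lowest of the list, at 58.8, 63.4 and 57.2 CPM. The 15 astrocyte genes summed to 13338, 13248 and 13028 CPM, again with none past 2-fold, where 2.26% of all genes compared were past it. Slc1a2, the glutamate transporter GLT-1, was at 2368, 2378 and 2728 CPM. The 10 oligodendrocyte precursor genes summed to 881, 937 and 879.6 CPM. C1ql1, which is also the synaptic organizer of climbing fibres, was the member past 2-fold, at 18.1, 41.4 and 16.6 CPM. The 12 pan-neuronal genes summed to 14877, 12549 and 15439.9 CPM, 9 of 12 lowest in replicate 2, with none past 2-fold, among them Snap25, a vesicle fusion protein, at 3614, 3303 and 3655 CPM and Nefh, the heavy neurofilament, at 1498, 1047 and 1583 CPM. Per length, the summed means were 30844 ± 528 TPM for the 15 oligodendrocyte genes, 16486 ± 1889 TPM for the 12 pan-neuronal genes, 13101 ± 228 TPM for the 15 astrocyte genes, 885 ± 464 TPM for the 16 Purkinje cell genes and 578 ± 570.0 TPM for the 14 granule cell genes (SD, n = 3).

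Most microglia and vessel genes were highest in replicate 2, by small steps for microglia and by larger ones for smooth muscle. The 15 microglia genes summed to 628, 787 and 646 CPM, 14 of 15 highest in replicate 2 but none past 2-fold, where 4598 of all 13853 genes compared were highest in replicate 2. C1qa, of complement, was at 41.4, 56.4 and 42.0 CPM. The 12 endothelial genes summed to 610.4, 694 and 647 CPM, 10 of 12 highest in replicate 2, and the 1 past 2-fold was Vwf, von Willebrand factor of larger vessels, at 19.7, 62.8 and 36.6 CPM. Among 8 mural cell genes (195, 309.8 and 241 CPM), the smooth muscle members Acta2, Myh11 and Tagln passed 2-fold, at 10.9, 42.8 and 19.9 CPM, 11.4, 32.7 and 18.4 CPM and 9.22, 30.3 and 12.4 CPM, while the pericyte gene Rgs5 stayed at 37.9, 39.3 and 38.1 CPM.

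Genes of the coverings and of tissue outside the brain parenchyma varied more. The 10 fibroblast and meninges genes summed to 708, 1912 and 1353 CPM, all 10 were highest in replicate 2 and lowest in replicate 1, and 9 of 10 passed 2-fold. Over all genes compared, 33.2% were highest in replicate 2, 32.7% highest in replicate 3 and 34.5% lowest in replicate 1. Past 2-fold were 2.26%. Ptgds, the prostaglandin D synthase of the meninges, was at 554, 1436 and 1061 CPM, Igf2, a growth factor made there, at 45.7, 174 and 107 CPM, and Col3a1, a fibrillar collagen, at 8.67, 49.5 and 23.7 CPM. The 8 Schwann cell genes summed to 264, 316 and 445 CPM, the 7 compared all highest in replicate 3, with 3 of 7 past 2-fold. Prx, periaxin of peripheral myelin, was at 3.87, 11.9 and 23.4 CPM. The 12 skeletal muscle genes summed to 41.6, 81.4 and 38.2 CPM, 10 of 11 compared highest in replicate 2 and 7 past 2-fold, with Acta1, the actin of skeletal muscle, at 8.88, 19.2 and 6.65 CPM and Mb, myoglobin, at 1.48, 5.20 and 0.641 CPM. Ependymal genes (63.9, 59.7 and 64.9 CPM) and choroid plexus genes (27.2, 25.4 and 26.1 CPM) were low in sum and differed little, but Ttr, transthyretin of the choroid plexus, was at 6.28, 0.364 and 0.950 CPM. Among 9 leukocyte genes (25.8, 32.7 and 22.7 CPM), Cd3e of T cells had 2, 2 and 2 counts. The part of these cell types in the order of the cerebellar and Hox genes was not tested.

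**Figure D4:**
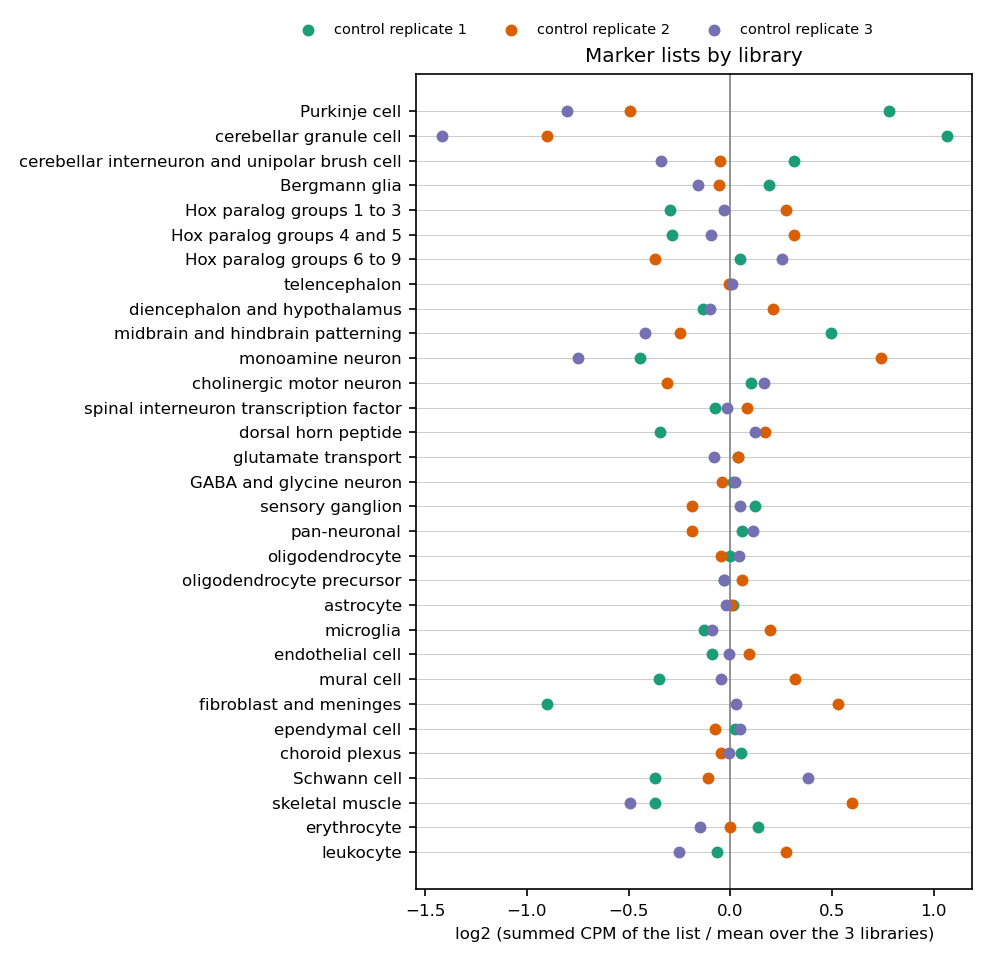
For each marker list, the summed CPM of each control library relative to the mean of the 3, on a log2 scale, 1 point per library. Oligodendrocyte and astrocyte lists lie near 0, granule and Purkinje cell lists are highest in replicate 1, and fibroblast, monoamine and skeletal muscle lists are highest in replicate 2.

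The genes of the axon initial segment and node, on which the series is built, varied slightly more in the controls than the typical gene. The initial segment is the part of the axon where AnkG anchors Neurofascin 186, sodium channels and potassium channels and where the action potential starts. Nfasc (chromosome 1 from 132492428 to 132669564) was at 717, 665 and 689 CPM, or 690.1 ± 26.2 CPM (SD, n = 3), and Ank3 (chromosome 10 from 69234603 to 69863268) at 360.0, 377 and 352 CPM, or 363 ± 12.6 CPM (SD, n = 3). The 13 genes of the list summed to 4994, 4639 and 5042 CPM. None passed 2-fold, which for a list of this size is near the 2.26% of all genes compared that did. Their median SD on the log2 scale was 0.11, against 0.085 over all genes. Genes from 100 to 300 CPM had a median SD of 0.061, and those from 300 to 1000 CPM 0.066. Spnb4 (current symbol Sptbn4), the beta-IV spectrin of this scaffold, was at 226, 214 and 192 CPM, Scn8a, the sodium channel Nav1.6, at 615, 528 and 618 CPM, and Kcna1, a juxtaparanodal potassium channel, at 939, 782 and 1004 CPM. Kcnq3 was the lowest of the list, at 20.7, 26.2 and 26.2 CPM. Nfasc is also made by oligodendrocytes, and both genes by most neurons. Over the same libraries the sum of the Purkinje cell genes differed 2.99-fold between replicates 1 and 3.

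The sex-linked genes differed between the libraries. Xist, the RNA of the inactive X chromosome, was at 464, 602 and 0.428 CPM. Ddx3y, a Y-linked RNA helicase, was at 7.19, 0.344 and 101 CPM, Eif2s3y, a translation factor subunit, at 3.40, 0.263 and 25.2 CPM, Kdm5d, a histone demethylase, at 3.71, 0.182 and 23.8 CPM, and Uty, a relative of the demethylase Utx, at 2.00, 0.162 and 17.7 CPM. Replicate 2 had Xist with next to no Y-linked RNA, replicate 3 the reverse, and replicate 1 held both: its Xist was at 77.1% of the level in replicate 2, and its 4 Y-linked genes were at 7.12% to 15.6% of the level in replicate 3. In replicate 2 these 4 genes were at 0.341% to 1.05% of that level. The labels give mixed sex and no sex for a single library, and why replicate 1 held both was not tested.

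Across all genes the libraries were close. Over the 13853 genes compared, Pearson's r of log2(CPM + 0.5) was 0.988 between replicates 1 and 2, 0.988 between 1 and 3 and 0.991 between 2 and 3, a description across genes, which are not independent and share each library's preparation. Between replicates 1 and 2, 228 genes (1.65%) passed 2-fold, 78 higher (0.563%) and 150 lower (1.08%) in replicate 1. Between replicates 1 and 3, 177 genes (1.28%) passed, 109 higher (0.787%) and 68 lower (0.491%) in replicate 1. Between replicates 2 and 3, 103 genes (0.744%) passed, 81 higher (0.585%) and 22 lower (0.159%) in replicate 2. The common biological coefficient of variation, an estimate by edgeR of the spread between libraries beyond counting error, was 0.140 over 16431 genes. Leaving out replicate 1 lowered it to 0.116, and leaving out the genes of the Purkinje, granule, Hox and sex lists lowered it to 0.119. Over the 13853 genes, the median SD of log2(CPM + 0.5) was 0.085, and 7.39% of genes differed by at least 1.5-fold and 0.484% by at least 4-fold between the highest and lowest library.

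The spread fell with abundance and then levelled off above counting error. Genes from 1 to 3 CPM had a median SD of 0.20, where counting alone gives 0.16, and 7.24% of them passed 2-fold. Genes from 100 to 300 CPM had a median SD of 0.061, where counting alone gives 0.018, and 0.481% passed. The 5 steadiest genes at a mean of at least 10 CPM were Myrip, a Rab and myosin adaptor (55.6, 55.6 and 55.6 CPM), Pdcd6, a calcium sensor of membrane trafficking (59.5, 59.5 and 59.6 CPM), Arhgef26, a guanine nucleotide exchange factor (55.4, 55.4 and 55.5 CPM), Srr, serine racemase (48.7, 48.7 and 48.8 CPM), and Paics, an enzyme of purine synthesis (109.6, 109.4 and 109.6 CPM). Each had a smaller SD than counting alone gives at its abundance, and was chosen for it.

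**Figure D5:**
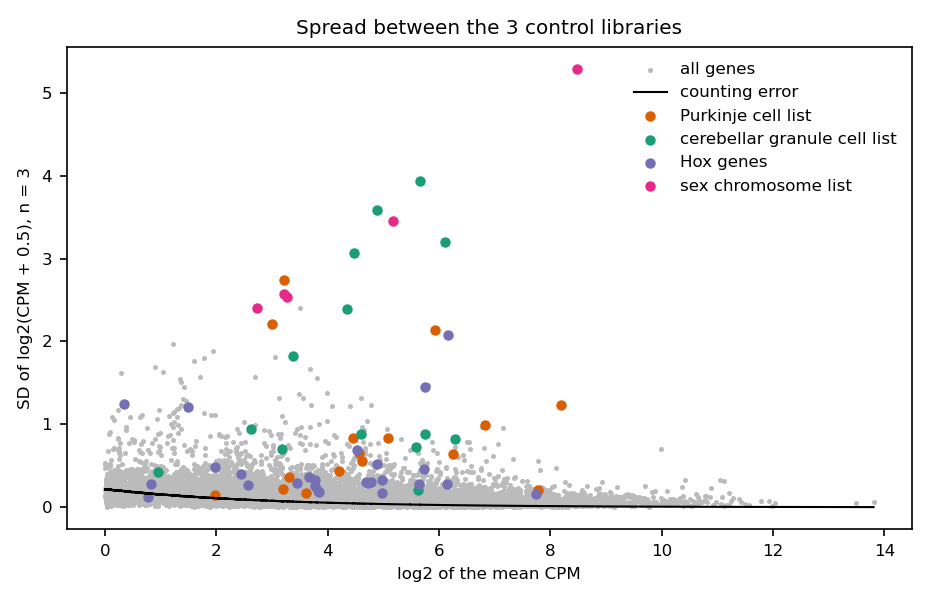
SD of log2(CPM + 0.5) over the 3 control libraries against log2 of the mean CPM, for all 13853 genes compared (grey), with the SD that counting alone gives (line) and list members in colour. The median SD is 0.085, whereas Xist, Fat2, Gabra6, Ddx3y, Cbln3 and Slc17a7 lie above 3.

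The genes with the widest ranges were mostly those already described. On the log2(CPM + 0.5) scale, Xist spanned 9.34, Fat2 7.86, Gabra6 7.15, Ddx3y 6.91, Cbln3 6.35, Slc17a7 6.13, Pcp2 5.33, Kdm5d 5.16, Eif2s3y 5.07 and Uty 4.78. The next 10 were Neurod1, Prg4, Gsbs, Car8, Cnpy1, Hoxc8, Crtam, Gabrd, Ltbp2 and Arhgef33, down to 3.36. The ranges of genes with a library near 0 shrink with a larger pseudocount. With 5 CPM in place of 0.5, Fat2 spanned 4.85, Kdm5d 2.48, Cnpy1 1.20, Crtam 1.49 and Ltbp2 1.37. Of the 20, 10 belong to the Purkinje, granule or Hox lists and 5 to the sex list. Cnpy1, linked to FGF signalling, had 250, 26 and 0 counts, Crtam, an adhesion molecule first known from T cells, 393, 44 and 18 counts, Ltbp2, a matrix protein that binds fibrillin, 342, 48 and 16 counts, and Arhgef33, a guanine nucleotide exchange factor, 800, 121 and 66 counts. All 4 were highest in replicate 1, in the order of the granule cell genes.

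Each library stood apart in a limited set of genes. Replicate 1 was at least 2-fold above both others in 59 genes (0.426% of those compared), 22 of them in the marker lists, with 10 of the granule cell and 8 of the Purkinje cell list. It was 2-fold below both others in 48 genes (0.346%), among them Prg4, the lubricant proteoglycan of joints (0.467, 21.4 and 12.3 CPM), Ogn, a small proteoglycan (3.82, 24.8 and 19.1 CPM), Dpt, a dermal matrix protein (1.04, 5.77 and 4.94 CPM), and Msln, mesothelin (0.234, 2.39 and 2.00 CPM). Replicate 2 was above both others in 37 genes (0.267%), 14 of them in the marker lists, led by Ano2, a calcium-activated chloride channel (0.234, 5.12 and 0.238 CPM), Htr5b, a serotonin receptor (0.363, 7.98 and 0.784 CPM), Crh, corticotropin-releasing hormone (0.545, 6.44 and 0.736 CPM), Col6a2, a chain of collagen VI (9.45, 51.9 and 11.4 CPM), and Slc18a2 (0.234, 3.24 and 0.428 CPM). It was below both others in 9 genes (0.065%), which were 5 Hox genes of groups 6 to 9 and the 4 Y-linked genes. Replicate 3 was above both others in 10 genes (0.0722%), the 4 Y-linked genes among them, followed by Xaf1, an interferon-induced gene (4.80, 5.16 and 18.3 CPM). It was below both others in 32 genes (0.231%), led by Xist, Fat2, Slc17a7, Gabra6 and Cbln3.

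Immediate early and clock genes varied more than the typical gene, heat shock genes about as much, and most stayed within 2-fold. The median SD on the log2 scale was 0.21 for the immediate early list, 0.15 for the clock list and 0.089 for the heat shock list. Over all genes it was 0.085, and 2.26% of all genes passed 2-fold. The 9 immediate early genes, which neurons switch on within minutes of activity, summed to 124, 136 and 156 CPM with none past 2-fold, and Fos was at 12.7, 12.1 and 18.8 CPM. The 10 clock genes summed to 822, 791 and 759 CPM, again with none past 2-fold, with Dbp, an output gene of the clock, at 66.5, 71.9 and 52.5 CPM and Per1 at 64.0, 48.7 and 46.2 CPM. Of 6 heat shock genes (417, 455 and 401 CPM), Hspa8, a constitutive chaperone, passed 2-fold at 47.7, 95.7 and 32.5 CPM. Sequence that Hspa8 shares with other genes was not measured, and the part of reads aligned to several places in its values was not tested.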

How the data were processed

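Polyadenylated RNA was sequenced from 3 control libraries labelled cerebellar hemisphere. Reads were trimmed and aligned to GRCm39 by the authors (the submitters' processing notes name FastQC 0.12.1, Trimmomatic 0.39, STAR 2.7.11a, R 4.3.2 and DESeq2 1.40.2), who deposited raw counts per gene for 22609 genes. The methods name counting by STAR, while the 5 summary lines of the table follow another counter's layout, and the strand setting is not given in the sources used here. The labels give single reads of 100 bases and the methods give pairs. The authors also deposited normalized signal, the same counts divided by a size factor of 0.815, 1.05 and 0.892, which was read to check those factors and as another scaling of the 6 markers. The 5 summary lines were left out of library sizes. Of all reads in them and on genes, 33.7% to 33.9% were listed as aligned to several places, 9.58% to 9.96% as without a gene and 0.168% to 0.178% as ambiguous. The 8 columns of knockout libraries were not used.

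CPM were computed with TMM factors of edgeR 4.0.16 (limma 3.58.1, R 4.3.3) over the 3 libraries, and further steps ran in Python with pandas. TPM used the union of exons in GENCODE vM39, in which 18294 symbols were found directly, 2383 as synonyms and 1932 not at all (1.02% to 1.04% of counts). Promoter windows came from RefSeq on GRCm38.p6, and sequence shared between genes was measured by 50-base words. Log2 values used a pseudocount of 0.5 CPM, and 2-fold calls were made on that scale among genes at a mean of at least 1 CPM. The common biological coefficient of variation was estimated in edgeR over genes with at least 10 counts. No test between groups was possible, and no p-value is given. If any libraries were split from shared tissue, the spread between those would be technical. Xist was at 602 CPM in replicate 2 and 0.428 CPM in replicate 3, and whether any libraries shared tissue was not tested.

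Named in the text are 6 markers, the 20 genes with the highest TPM, the 20 with the widest range, 5 per library that were highest or lowest in it, the 5 with the smallest SD, Nfasc, Ank3, and members of 39 marker lists, of which 379 of 393 genes were found. Some genes that these rules pick are not reported here. Some list members, such as those chosen as examples of a list, were picked after their values were seen. The markers and lists were chosen with earlier results of these data known. Alternatives were other scalings, filters, pseudocounts, folds and exon lengths, DESeq2 1.42.0, and leaving out each library. TPM from basic transcripts and coefficients of variation without marker lists or from trended values were chosen after seeing the data.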

Additional observations from a re-analysis of the deposited data

How the results depend on the processing

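Among the summary values, 30 of 47 alternative values stayed within 1 SD or, for counts, within 1.5 times, and 17 moved. For single genes and lists, 447 of 556 stayed and 109 moved, and other scalings shifted the median of all genes by at most 0.025 on the log2 scale. Staying within 1 SD is a weak limit where the SD is wide. Without replicate 1, Pcp2 fell from 31.5 to 2.78 TPM, Gabra6 from 73.1 to 5.74 TPM and the granule cell list from 578 to 251 TPM. All 3 count as having stayed. Ranking by TPM lowered the share of counts on the 20 most abundant genes from 7.56% to 6.49%, or to 6.70% with basic transcripts. The common biological coefficient of variation of 0.140 ranged from 0.116 to 0.150 when each library was left out, lowest without replicate 1. It was 0.119 without the Purkinje, granule, Hox and sex lists, and 0.0748 with DESeq2's local fit, whose trend over genes is another quantity. The number of genes past 2-fold between replicates 1 and 2 went from 228 to 82 with a pseudocount of 5 and to 82 with a mean of at least 10 CPM, and to 686 at 1.5-fold and 48 at 4-fold. Between replicates 1 and 3 it went from 177 to 61, 70, 540 and 37 under these 4 settings, and between replicates 2 and 3 from 103 to 32, 37, 437 and 24. The mean of at least 10 CPM leaves 10220 genes to compare, while the pseudocount and the fold limits keep all 13853. Alternatives without the mitochondrial genome were not run, since its genes have no line in the tables. No paired analysis was possible because the libraries form 1 group and no result comes from a test. Depth limits values near 3 counts, such as Gabra6 in replicate 3.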

Other observations

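Of 10 genes in common use as references, 2 were hardly read. Gapdh, a glycolytic enzyme, had 45, 60 and 25 counts and Ppia, cyclophilin A, 26, 40 and 34 counts, and 16.1% and 17.2% of their 50-base words occur in another gene. Of the 8 reference genes compared, 1 passed 2-fold and was at least 2-fold lower in replicate 3 than in both others. Among the rest, Actb was at 485, 576 and 541 CPM and Ywhaz at 226, 228 and 228 CPM. Hba-a1 and Hba-a2, alpha globins that share 81.7% and 59.8% of their words with other genes, had no count in any library, while Beta-s (current symbol Hbb-bs), a beta globin with 50.7% shared words, was at 208, 192 and 172 CPM. The counts of such genes are uncertain, and the part of reads aligned to several places in these low values was not tested.

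Replicate 3 was low in a set of genes from several lists or none, which were named after their values were seen. Vcp, an ATPase of protein degradation, was at 44.4, 41.9 and 13.6 CPM. Of genes of dividing cells, Mki67 was at 2.54, 2.67 and 0.570 CPM and Top2a at 1.97, 1.92 and 0.428 CPM, and of neutrophil granule genes, Ngp was at 3.25, 2.79 and 0.736 CPM and Ltf at 2.10, 2.04 and 0.523 CPM. All 5 were at least 2-fold lower in replicate 3 than in both others. Replicate 1 was low in some class II histocompatibility genes in the same sense, with H2-Aa at 1.87, 7.98 and 7.17 CPM, H2-Ab1 at 1.82, 6.52 and 5.39 CPM and H2-Eb1 at 2.36, 6.44 and 5.39 CPM. They were picked from the 48 genes (0.346%) in which replicate 1 was 2-fold below both others. No list of class II genes was set beforehand.

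Chromosome 9 held the largest share of genes past 2-fold between the highest and lowest library among the autosomes, with 36 of 778 genes compared (4.63%) against 2.26% over all chromosomes. Of the 42 genes in which replicate 3 stood apart from both others, 7 lie on chromosome 9. For replicate 1 it was 8 of 107 such genes and for replicate 2, 5 of 46. Chromosome 9 holds 778 of all 13853 genes compared. The 7 include Ngp and Ltf, described above. Also among the 7, Morf4l1, a chromatin protein, was at 19.8, 16.4 and 45.0 CPM, higher in replicate 3. Filip1, Irak1bp1 and Thsd4 were lower in it, at 10.7, 12.1 and 3.90 CPM, 10.7, 10.1 and 4.80 CPM and 17.0, 23.4 and 7.91 CPM. The labels name a mixed C57BL/6J;129 background, and its part in these differences was not tested.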
